A study of Mus musculus with 8 samples.

Results

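The chemokine and chemokine receptor genes, without Ccl21, were examined in maturation (Mat) stage dental tissue of Med1 conditional knockout mice. Members were the genes whose array symbol starts with Ccl, Cxcl, Cx3cl, Ccr, Cxcr or Cx3cr and a digit, together with Xcl1 and the Ackr genes, and every Ccl21 gene was left out. They made up 56 of the 16593 named genes and 73 of the 25697 probes of the array. KO mice carried the floxed Med1 allele on both chromosomes (MED1 fl/fl) and a Cre driven by the K14 (Krt14) promoter, which acts in epithelia and leaves Med1 in the other cells of the tissue. Control littermates (CON, labelled WT) had the same floxed alleles (MED1 fl/fl) and no Cre, and both groups were C57BL/6 mice at 10 wk. KO incisors grew hairs and lacked enamel, while CON incisors formed enamel. Tissue of 3 mice was combined, and 4 KO and 4 CON arrays were measured on Illumina MouseRef-8 beads. Whether each array had its own pool of mice is not clear from the labels, so p-values cover only the spread between these samples, possibly a technical one, and the number of arrays limits the precision.

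Chemokines are small secreted proteins that direct the movement of cells along a gradient. They are named by the spacing of their first cysteines (CC, CXC, CX3C and XC) and act through receptors with a matching name that couple to inhibitory G proteins. CXC ligands with an ELR motif draw neutrophils through Cxcr1 and Cxcr2, many CC ligands draw monocytes and macrophages, and atypical receptors (Ackr) bind chemokines and remove or transport them without G protein signalling. Several of these ligand genes are classic targets of NF-kB, a transcription factor activated by cytokines such as interleukin 1 and tumor necrosis factor.

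Arrays averaged 550.8 to 811.9 intensity units and detected 11554 to 13134 probes each, at a detection p under 0.01. Across the tested probes the correlation was 0.992 to 0.993 within a group and 0.911 to 0.923 between KO and CON. The Med1 probe that passed the filter read 7.67, 7.67, 7.30 and 7.53 on the log2 scale in KO arrays, against 8.06, 8.58, 8.12 and 8.42 in CON arrays. Med1 was thus lower in KO tissue by a log2 difference of -0.76 ± 0.13 (SE; limma, adjusted p = 0.00075), with no overlap between the groups, and where this probe lies relative to the floxed exons is not known here. The ameloblast genes Ambn, Amelx, Enam, Klk4, Mmp20 and Slc24a4 were detected on all 8 arrays.

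Inflammatory chemokine genes were high in KO tissue. The 6 with the largest fitted differences were Ccl3, Ccl4, Ccl9, Cxcl1, Cxcl2 and Cxcl5, at 3.95 to 5.02 on the log2 scale, and their order has no meaning because Ccl3, Cxcl2 and Cxcl5 were at or near background in CON. A probe was tested where it was detected on at least 4 of the 8 arrays, and a gene was read from its brightest tested probe. Of the 56 genes, 27 were tested, and 22 of these were higher in KO, 3 were lower and 2 did not pass the adjusted p of 0.05. Over all 9085 tested genes, 24.4% were higher and 36.5% were lower, so that 60.9% passed in either direction. All 4 KO arrays lay above all 4 CON arrays for 22 of the 27 genes and below them for 3, while 23.3% of all tested genes lay above and 33.5% below. Of the 27 genes, 18 were called higher with a log2 difference over 1, or 2-fold, beside 10.2% of all tested genes. Called lower by as much were 0 of the 27, beside 4.08% of all tested genes. The 33 tested probes gave 25 higher, 4 lower and 4 not past the threshold, beside 22.4% higher and 37.3% lower among all 12838 tested probes. The median difference of the 27 genes was 1.39 on the log2 scale, against -0.12 over all tested genes.

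The filter itself shaped these counts, since a gene detected in KO arrays alone had to differ in order to be tested. Of the 27 genes, 5 were detected on 0 CON arrays, namely Ccl3, Ccl6, Ccl7, Cxcr1 and Cxcr2. For these a fold is given as a lower bound, in which each CON array stands at its weakest detected signal or at the probe's own signal, whichever is higher. With those 5 genes at their bound the median was 1.32, and 15 genes remained over 2-fold. The 16 genes detected on all 8 arrays gave 13 higher and 2 lower, beside 21.3% and 40.1% of all genes so detected. Without any filter, 28 of the 56 genes were higher and 4 were lower, beside 14.2% and 19.6% of all genes, and KO arrays lay wholly above CON arrays for 28 genes and wholly below for 5, beside 14.5% and 20% of all genes. Because the tissue was measured in bulk, more cells of a type and more RNA per cell cannot be told apart in any of these values.

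**Figure D1:**
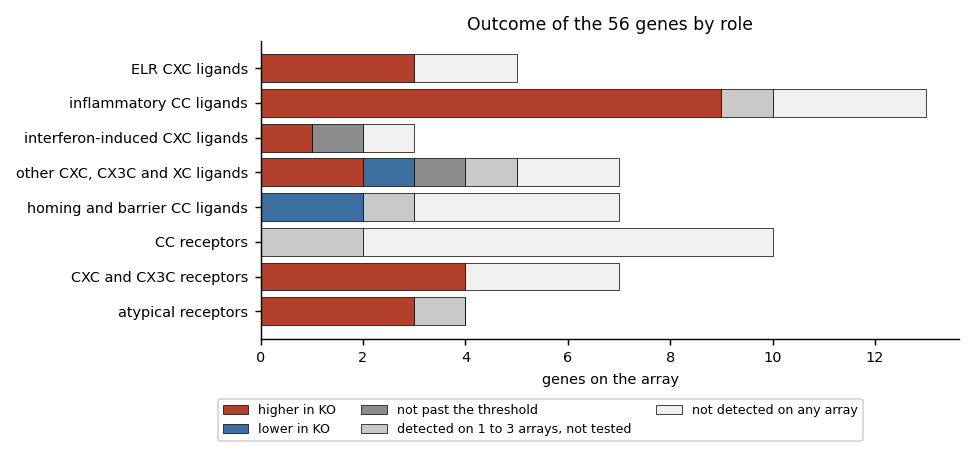
Number of chemokine and receptor genes on the array (x axis) by role (y axis), coloured by the outcome of the comparison of KO with CON. All 9 tested inflammatory CC ligands and all 3 tested ELR CXC ligands were higher in KO, beside 24.4% of all tested genes. The 2 tested homing or barrier CC ligands were lower, beside 36.5%, and 0 of the 10 CC receptors could be tested.

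The ELR CXC ligands, which attract neutrophils, held 3 tested genes, and all 3 were higher in KO, beside 24.4% of all tested genes. Cxcl1 read 11.52, 11.52, 11.42 and 11.46 on the log2 scale in KO arrays, against 7.46, 7.69, 7.45 and 7.51 in CON arrays. Its 4 KO values lay within about 0.1 of each other and far above every CON value, with a difference of 3.95 ± 0.08, or 15.5-fold (SE; limma, adjusted p = 2.2e-10). Cxcl5 read 9.49, 10.22, 9.81 and 9.92 in KO arrays, against 5.59, 5.59, 5.36 and 5.86 in CON arrays, of which 2 detected it (difference 4.26 ± 0.16, 19.2-fold, adjusted p = 9.2e-09). Cxcl2 read 8.60, 9.52, 9.36 and 9.10 in KO arrays, against 4.60, 5.74, 4.66 and 4.98 in CON arrays, where only the highest value counted as detected (fitted difference 4.15 ± 0.26, adjusted p = 5.3e-07). Since 3 CON arrays were at background, the size of this difference is uncertain, and without background correction it was 2.30. The groups did not overlap for Cxcl5 or Cxcl2, and Cxcl2 had the widest spread of the 3 in both groups. Cxcl3, which encodes a close relative of Cxcl1 and Cxcl2, and Cxcl15, known from lung epithelium, were detected on 0 arrays. Cxcl3 averaged 4.46 ± 0.08 in KO and 4.45 ± 0.11 in CON (SD, n = 4 each), at the background of the array.

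The stretch of 120 bases before the annotated start of Cxcl1, Cxcl2 and Cxcl3 is shown because these neighbouring genes share NF-kB letters there while only Cxcl1 and Cxcl2 gave a signal. Ccl9 and Ccl3 are shown beside them as CC ligands that were high in KO with and without such letters. The sequences come from RefSeq promoters on GRCm38.p6 and run 5′ to 3′ on the strand of the gene. Capitals mark matches to the NF-kB letters, GGG and TTTCC with any 2 bases between them on either strand, and in Ccl9 also a match to the AP-1 letters TGANTCA. The windows lie at chr5:90891125-90891244 (+) for Cxcl1, chr5:90903779-90903898 (+) for Cxcl2, chr5:90785981-90786100 (+) for Cxcl3, chr11:83578637-83578756 (-) for Ccl9 and chr11:83649379-83649498 (-) for Ccl3.
Cxcl1: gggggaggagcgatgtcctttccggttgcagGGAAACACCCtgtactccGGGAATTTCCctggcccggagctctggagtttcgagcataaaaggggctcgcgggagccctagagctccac
Cxcl2: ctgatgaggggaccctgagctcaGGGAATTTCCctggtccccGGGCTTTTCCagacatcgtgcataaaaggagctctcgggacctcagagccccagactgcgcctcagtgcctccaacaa
Cxcl3: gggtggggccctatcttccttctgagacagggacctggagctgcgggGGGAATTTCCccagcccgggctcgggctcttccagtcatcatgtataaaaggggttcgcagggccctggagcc
Ccl9: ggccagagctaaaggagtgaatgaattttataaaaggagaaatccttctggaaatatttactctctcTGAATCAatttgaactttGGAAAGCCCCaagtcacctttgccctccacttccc
Ccl3: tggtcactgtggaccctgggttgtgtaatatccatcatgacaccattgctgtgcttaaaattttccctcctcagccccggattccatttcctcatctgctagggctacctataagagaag

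Cxcl1 and Cxcl2 each held 2 NF-kB matches in this stretch, and Cxcl3 and Ccl9 held 1 each. Over the 250 bases before the start, 6 of the 42 members with a RefSeq promoter held such a match, beside 1.654% of 27025 genes. The 6 were Cxcl1, Cxcl2 and Ccl9, which were higher in KO, and Cxcl3, Ccl20 and Ccr3, which were detected on 0 arrays. Matches were thus found in 3 of the 16 searched genes that were higher and in 3 of the 17 searched genes that were undetected. AP-1 letters (TGANTCA on either strand) lay before 5 of the 42 members, beside 7.819% of all genes, and letters of the interferon element ISRE (GAAA and GAAA with any 2 bases between them, on either strand) before 3 of the 42, beside 3.463%. The matches in the printed stretches did not overlap one another. A match describes the letters only and shows no bound factor.

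**Figure D2:**
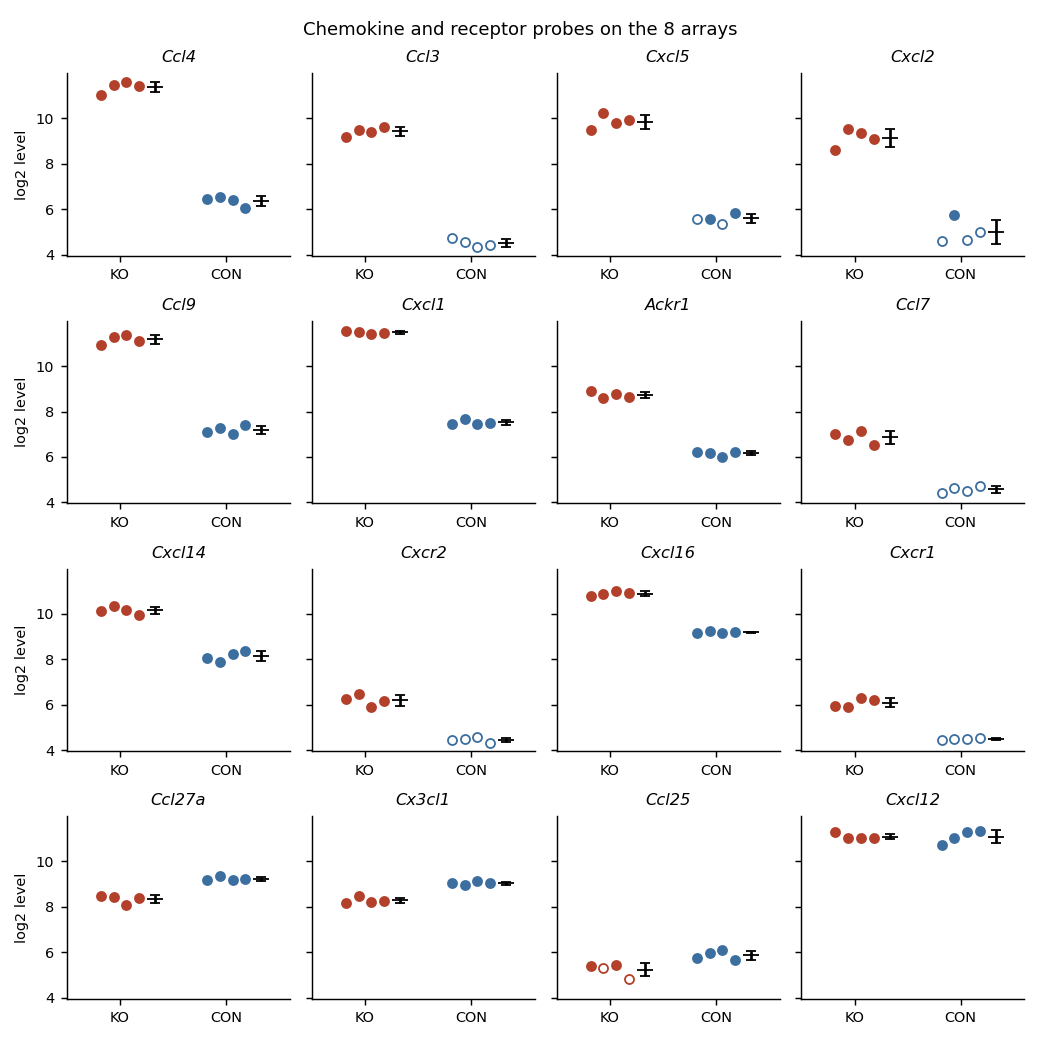
Normalized log2 level (y axis) of 16 chemokine and receptor genes on the 4 KO arrays (red, left) and the 4 CON arrays (blue, right), with the mean and SD of each group in black and open circles for arrays that did not detect the probe. The 12 genes of the upper rows had all KO arrays above all CON arrays, Ccl27a, Cx3cl1 and Ccl25 had all KO arrays below, and Cxcl12 overlapped.

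The CC ligands of inflammation, which attract monocytes, macrophages, eosinophils and T cells, held 13 genes. All 9 that were tested were higher in KO, beside 24.4% of all tested genes. Their log2 differences lay between 0.56 and 5.02. Ccl4 (MIP-1 beta), which attracts monocytes and T cells, read 11.04, 11.48, 11.58 and 11.44 in KO arrays, against 6.45, 6.54, 6.42 and 6.06 in CON arrays. Before normalization its signal was 2082 to 3865 intensity units in KO and 173.5 to 188.7 in CON. Ccl4 was 32.5-fold higher in KO (difference 5.02 ± 0.14, adjusted p = 1.6e-09), and its second probe, not detected in CON, was at least 5.55-fold higher (fitted difference 3.55 ± 0.10). Ccl3 (MIP-1 alpha), which acts on Ccr1, read 9.20, 9.49, 9.39 and 9.63 in KO arrays, against 4.75, 4.56, 4.33 and 4.43 in CON arrays. No CON array detected Ccl3, so its KO level was at least 15.3-fold higher (fitted difference 4.91 ± 0.12, adjusted p = 5.9e-10). Ccl9 (MIP-1 gamma), another Ccr1 ligand that myeloid cells and osteoclasts make in mice, read 10.94, 11.27, 11.37 and 11.12 in KO arrays, against 7.09, 7.27, 7.01 and 7.40 in CON arrays. It was detected on all 8 arrays and was 15.8-fold higher in KO (difference 3.98 ± 0.12, adjusted p = 2.1e-09).

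Ccl7 (MCP-3), a monocyte attractant acting on Ccr2, read 7.0, 6.76, 7.16 and 6.53 in KO arrays, against 4.41, 4.65, 4.49 and 4.72 in CON arrays, where it was not detected. It was at least 2.59-fold higher in KO (fitted difference 2.29 ± 0.14, adjusted p = 3.2e-07). Ccl11 (eotaxin), which attracts eosinophils through Ccr3, averaged 6.97 ± 0.11 in KO and 5.40 ± 0.15 in CON (SD, n = 4 each), where 1 array detected it. Its fitted difference was 1.56 ± 0.09, and 0.64 without background correction. The second Ccl11 probe, not detected in CON, was at least 1.23-fold higher. Ccl6, a macrophage attractant of rodents, averaged 5.69 ± 0.19 in KO and 4.44 ± 0.07 in CON, where it was not detected, so that it was at least 1.15-fold higher. The remaining 3 genes of this role moved less. Ccl5 (RANTES), a T cell attractant, differed by 0.77 ± 0.19, Ccl8 (MCP-2) by 0.60 ± 0.16 and Ccl12, a mouse monocyte attractant acting on Ccr2, by 0.56 ± 0.13, and their KO and CON arrays did not overlap. Ccl12 was detected on 2 CON arrays, and its difference was 0.20 without background correction. Ccl5 was 6.86, 7.02, 7.03 and 6.95 in KO arrays, against 6.34, 5.52, 6.44 and 6.46 in CON arrays, and without the low CON array 2 its difference was 0.55.

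Ccl2 (MCP-1), the best known Ccr2 ligand, fell just short of the filter. It read 5.64, 5.93, 5.38 and 5.26 in KO arrays, of which 3 detected it, against 4.46, 4.38, 4.37 and 4.37 in CON arrays, of which 0 did. All KO values lay above all CON values, and in the fit without a filter the difference was 1.16 ± 0.13 (adjusted p = 7.5e-05). Ccl1, Ccl24 and Ccl26 were detected on 0 arrays.

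**Figure D3:**
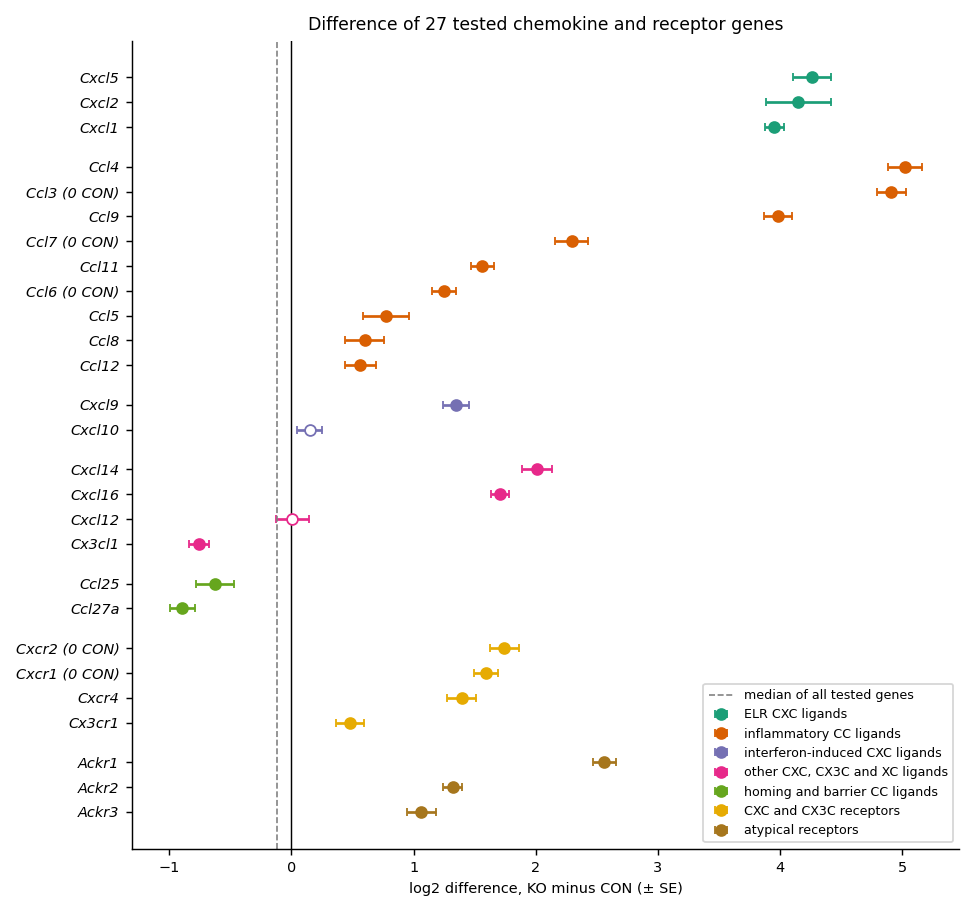
Difference of the log2 level, KO minus CON, with its SE (x axis) for the 27 tested chemokine and receptor genes (y axis), coloured by role. Open circles mark Cxcl10 and Cxcl12, which did not pass the adjusted p, "0 CON" marks the 5 genes that no CON array detected, and the dashed line is the median of all tested genes at -0.12.

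Among the interferon-induced CXC ligands, which attract activated T cells through Cxcr3, Cxcl9 was higher in KO and Cxcl10 was not past the threshold. Cxcl9 read 7.48, 7.65, 7.74 and 7.90 in KO arrays, against 6.53, 6.32, 6.32 and 6.20 in CON arrays (difference 1.35 ± 0.11, 2.54-fold, adjusted p = 2.6e-06). Cxcl10 read 5.61, 5.34, 5.49 and 5.27 in KO arrays, of which 3 detected it, against 5.26, 5.51, 5.19 and 5.16 in CON arrays, of which 1 did. These groups overlapped (difference 0.15 ± 0.10, adjusted p = 0.24), and Cxcl10 passed only after cyclic loess normalization, with a difference of 0.29 and an adjusted p of 0.034. Cxcl11 was detected on 0 arrays. Their receptor Cxcr3 was also detected on 0 arrays, although its signal was higher in all KO arrays (5.06 ± 0.21) than in all CON arrays (4.53 ± 0.06; SD, n = 4 each).

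The other CXC, CX3C and XC ligands moved apart from each other. Cxcl14, made by many epithelia, read 10.12, 10.36, 10.15 and 9.95 in KO arrays, against 8.06, 7.89, 8.24 and 8.37 in CON arrays (difference 2.01 ± 0.12, 4.02-fold, adjusted p = 3.6e-07). Its second probe differed by 1.65 ± 0.12. Cxcl16, a membrane-bound ligand of Cxcr6 and a scavenger receptor, read 10.76, 10.88, 10.99 and 10.91 in KO arrays, against 9.15, 9.23, 9.15 and 9.18 in CON arrays. Both groups were tight, and Cxcl16 was 3.26-fold higher in KO (difference 1.71 ± 0.07, adjusted p = 2.4e-08). Cx3cl1 (fractalkine), a membrane-bound ligand of Cx3cr1, went the other way, at 8.16, 8.46, 8.23 and 8.27 in KO arrays, against 9.06, 8.94, 9.12 and 9.03 in CON arrays (difference -0.76 ± 0.08, 1.69-fold lower, adjusted p = 2.9e-05).

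Cxcl12 (SDF-1), which holds stem cells and leukocytes in place through Cxcr4, read 11.27, 11.02, 11.05 and 11.04 in KO arrays, against 10.71, 11.01, 11.27 and 11.35 in CON arrays. The groups overlapped and the difference was 0.01 ± 0.14 (adjusted p = 0.96). Its other tested probes differed by -0.07 ± 0.09 and 0.06 ± 0.08, so 0 of its 3 tested probes passed. Cxcl13, which attracts B cells through Cxcr5, was not tested, at 5.82, 6.06, 5.02 and 5.11 in KO arrays, of which 2 detected it, against 4.36, 4.60, 4.45 and 4.37 in CON arrays, of which 0 did. Cxcl17 and Xcl1 were detected on 0 arrays.

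Of the CC ligands of lymphoid homing and barrier epithelia, 2 of 7 genes were tested. Both were lower in KO, beside 36.5% of all tested genes. Ccl27a (CTACK), which keratinocytes make to draw skin-homing T cells through Ccr10, read 8.49, 8.43, 8.07 and 8.41 in KO arrays, against 9.16, 9.38, 9.19 and 9.23 in CON arrays. It was 1.86-fold lower in KO (difference -0.89 ± 0.10, adjusted p = 4.1e-05), with a second probe at -0.92 ± 0.13. Ccl27a has near-identical copies in the mouse genome, between which these probes may not distinguish. Ccl25 (TECK), a Ccr9 ligand of thymus and gut, read 5.42, 5.30, 5.43 and 4.81 in KO arrays, of which 2 detected it. CON arrays, all of which detected Ccl25, read 5.76, 5.95, 6.11 and 5.65 (fitted difference -0.63 ± 0.15, limma, adjusted p = 0.0053). The size of this difference is uncertain near background, and without background correction it was -0.19. A second Ccl25 probe, detected on 0 KO arrays and 1 CON array, was not tested. Its groups overlapped, at 5.03 ± 0.17 in KO and 5.19 ± 0.32 in CON (SD). On the probes from which the 2 genes were read, every KO array lay below every CON array, beside 33.5% of all tested genes. Ccl19, a Ccr7 ligand, was detected on 1 KO array, and Ccl17, Ccl20, Ccl22 and Ccl28 were detected on 0 arrays.

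Of the 10 CC receptors 0 could be tested, while 4 of the 7 CXC and CX3C receptors were tested and were higher in KO, beside 24.4% of all tested genes. Of these 4, Cxcr1 and Cxcr2 were detected on 0 CON arrays and so had to come out higher. Cxcr2, the main neutrophil receptor of the ELR ligands, read 6.26, 6.47, 5.88 and 6.17 in KO arrays, against 4.45, 4.48, 4.56 and 4.32 in CON arrays. Cxcr1, its neighbour and relative, read 5.92, 5.91, 6.29 and 6.19 in KO arrays, against 4.45, 4.48, 4.50 and 4.52 in CON arrays. No CON array detected either receptor. Cxcr2 was thus at least 1.63-fold higher (fitted difference 1.74 ± 0.12, limma, adjusted p = 8.7e-07) and Cxcr1 at least 1.5-fold higher (1.59 ± 0.10, adjusted p = 3.9e-07). A second Cxcr2 probe was detected on 0 arrays. Cxcr4, the receptor of Cxcl12 on leukocytes and progenitors, was detected on all arrays, at 8.15, 8.19, 8.41 and 8.43 in KO, against 6.83, 6.98, 6.65 and 7.14 in CON (difference 1.39 ± 0.12, 2.63-fold, adjusted p = 4e-06). It was thus higher in KO, while its ligand Cxcl12 was not past the threshold. Cx3cr1, found on monocytes and macrophages, was higher by 0.48 ± 0.12 (limma, adjusted p = 0.0051), and its ligand Cx3cl1 was lower. Without background correction the Cx3cr1 difference was 0.18.

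Receptors of the CC ligands that were high in KO gave no signal that could be tested. Ccr1, Ccr2 and Ccr3, together with Ccr1l1, Ccr4, Ccr8, Ccr9 and Ccr10, were detected on 0 arrays, and so were Cxcr3, Cxcr5 and Cxcr6. Ccr1 averaged 4.37 ± 0.05 in KO and 4.43 ± 0.09 in CON, and Ccr2 averaged 4.41 ± 0.08 in KO and 4.46 ± 0.12 in CON (SD, n = 4 each), all at background. Ccr6, the receptor of Ccl20, was detected on 3 KO arrays and 0 CON arrays with overlapping signals, and Ccr7 on 1 array of each group. A probe that is not above background sets only an upper limit on its level.

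The atypical receptors Ackr1, Ackr2 and Ackr3 were detected on all 8 arrays and were all higher in KO, beside 21.3% of all genes so detected. Ackr1 (Duffy antigen), which venule endothelium uses to carry inflammatory chemokines, read 8.92, 8.60, 8.75 and 8.66 in KO arrays, against 6.23, 6.19, 6.02 and 6.24 in CON arrays. The groups were far apart, at 5.90-fold (difference 2.56 ± 0.09, adjusted p = 7.4e-09). Ackr2, a scavenger of inflammatory CC chemokines, differed by 1.32 ± 0.08 and Ackr3, a scavenger of Cxcl12, by 1.06 ± 0.12. Ackr4, which takes up Ccl19 and Ccl25, was detected on 2 KO arrays only and averaged 5.42 ± 0.25 in KO and 4.72 ± 0.10 in CON (SD, n = 4 each).

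Several members lie next to each other on a chromosome, within 500 kb of a neighbour in RefSeq. Their calls stand beside 24.4% higher and 36.5% lower among all tested genes. In the group of Ccl5, Ccl9, Ccl6, Ccl3 and Ccl4, all 5 genes were higher in KO. In the group of Ccl2, Ccl7, Ccl11, Ccl12, Ccl8 and Ccl1, 4 of 6 were higher, Ccl2 was detected but not tested, and Ccl1 was undetected. The group of Cxcl5, Cxcl3, Cxcl15, Cxcl1 and Cxcl2 held 3 genes that were higher and 2 that were undetected. Cxcr1 and Cxcr2 were both higher, whereas the group of Ccr9, Cxcr6, Ccr1, Ccr1l1, Ccr3 and Ccr2 was undetected in all 6. Cx3cl1, which was lower, lies between Ccl22 and Ccl17, which were undetected. Neighbouring genes with similar sequences may share signal on an array, which was not tested.

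Genes related to the chemokine system were counted from lists chosen with earlier results of these data known. Of 8 tested chemokine-like ligands and relatives, 6 were higher in KO and 1 was lower, with a median difference of 1.04 on the log2 scale. Over all tested genes 24.4% were higher and 36.5% were lower. Ppbp, a platelet precursor of an ELR ligand of Cxcr2, differed by 4.03 ± 0.07 and Pf4, its platelet neighbour, by 2.53 ± 0.23. Ccrl2, which binds chemerin and was named for its likeness to CC receptors, differed by 1.45 ± 0.09, and Cd74, a receptor of Mif, by 0.88 ± 0.08. Mif itself was the 1 lower gene (-0.48 ± 0.07). Of 43 tested genes of chemokine receptor signalling, 21 were higher, 9 were lower and 13 did not pass, with a median of 0.20, beside 24.4% higher and 36.5% lower among all tested genes. Of the 21, Fgr and Ncf1 were detected on 4 KO arrays and 0 CON arrays and so had to come out higher. Rgs1, which shortens G protein signals, differed by 3.06 ± 0.09, the leukocyte exchange factor Vav1 by 2.61 ± 0.09 and the kinase Prkcb by 1.59 ± 0.10, and the myeloid kinase Fgr was at least 2.20-fold higher. In the other direction, Rgs2 differed by -1.70 ± 0.15 and the exchange factor Prex1 by -1.15 ± 0.09. Of 14 tested genes of the NF-kB pathway and its inducing cytokines, 10 were higher, 1 was lower and 3 did not pass, beside the same shares of all tested genes. The median of their fitted differences was 1.12. Of the 10, Il1a and Tnf were detected on 4 KO arrays and 0 CON arrays and so had to come out higher. Il1b, which encodes interleukin 1 beta, differed by 5.05 ± 0.14 and Nfkbia, the inhibitor that NF-kB itself induces, by 1.83 ± 0.08, while Il1a was at least 4.11-fold higher. The cytokine Osm had a fitted difference of 3.76 ± 0.18, with 1 CON array detecting it.

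Neutrophil and macrophage markers were mostly higher in KO as well, while markers of other leukocytes were often undetected. All 12 tested neutrophil markers were higher in KO, beside 24.4% of all tested genes. Of the 12, Trem1 and Csf3r were detected on 4 KO arrays and 0 CON arrays and so had to come out higher. The mean log2 level of the 12 per array was 9.75 to 9.92 in KO and 8.06 to 8.17 in CON. The paper places S100a8 and S100a9, both among the 12, with epidermal calcium binding genes that were higher in younger KO mice. S100a8 was also bright in CON, at a mean of 12.65, and which cells carried the 12 genes was not tested. Of 8 tested macrophage and monocyte markers 7 were higher, and Cd163 among them, detected on 4 KO arrays and 0 CON arrays, had to be. The mean level of the 8 was 9.10 to 9.25 in KO and 6.38 to 6.82 in CON. Cd14, a coreceptor for bacterial lipopolysaccharide detected on all 8 arrays, differed by 3.98 ± 0.11. Of the 6 tested T cell markers, Cd3d, Cd3e, Cd3g, Cd8b1 and Zap70 were detected on 4 KO arrays and 0 CON arrays and so had to come out higher, and Thy1, detected on all 8, differed by 1.41 ± 0.10. The mean level of the 6 was 6.70 to 6.96 in KO and 5.53 to 5.72 in CON, largely at background in CON, and Cd4 and Cd8a were detected on 0 arrays. Of the 4 eosinophil markers, Prg2 was higher (1.54 ± 0.16), while Epx, Siglecf and Il5ra were detected on 0 arrays, and the cells that carried Prg2 are not known. Of 8 mast cell markers 2 were tested and 2 were higher, namely Hdc, detected on all 8 arrays (4.11 ± 0.13), and Cpa3. Cpa3 was detected on 4 KO and 0 CON arrays and so had to come out higher. Tpsb2, Tpsab1 and Ms4a2 were detected on 0 arrays, and the cells that carried Hdc are not known. Of 8 B cell markers 2 were tested and 2 were higher, and of 2 tested dendritic and Langerhans cell markers 1 was higher. Of the NK cell markers, 6 of 7 were detected on 0 arrays and Prf1 was lower (-1.69 ± 0.13). Of 7 tested blood vessel markers 4 were higher, with mean levels of 9.36 to 9.60 in KO and 9.0 to 9.15 in CON.

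Markers of other tissues differed by list. All 7 tested skeletal muscle genes were higher in KO, with mean levels of at least 10.75 in every KO array and 8.78 to 8.92 in CON. So were all 6 tested genes of the cornified epidermis (11.81 to 11.86 in KO and 7.39 to 7.86 in CON). All 4 tested osteoclast genes were also higher (8.08 to 8.20 in KO and 6.89 to 7.07 in CON), beside 24.4% of all tested genes. The epidermal gene Krt1 and the osteoclast genes Dcstamp and Acp5 were detected on 4 KO arrays and 0 CON arrays and so had to come out higher. Of 8 tested genes of fibroblasts and dental mesenchyme, 5 were higher and 0 were lower (11.34 to 11.55 in KO and 10.69 to 10.87 in CON). Of 6 tested ameloblast genes 3 were higher and 1 was lower (median 0.20), and of 6 tested smooth muscle and pericyte genes 2 were higher and 1 was lower (median 0.05). Of 3 tested lymphatic genes 1 was higher, namely Lyve1, which was detected on 4 KO arrays and 0 CON arrays and so had to be. The part of these cell types in the chemokine values was not tested.

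**Figure D4:**
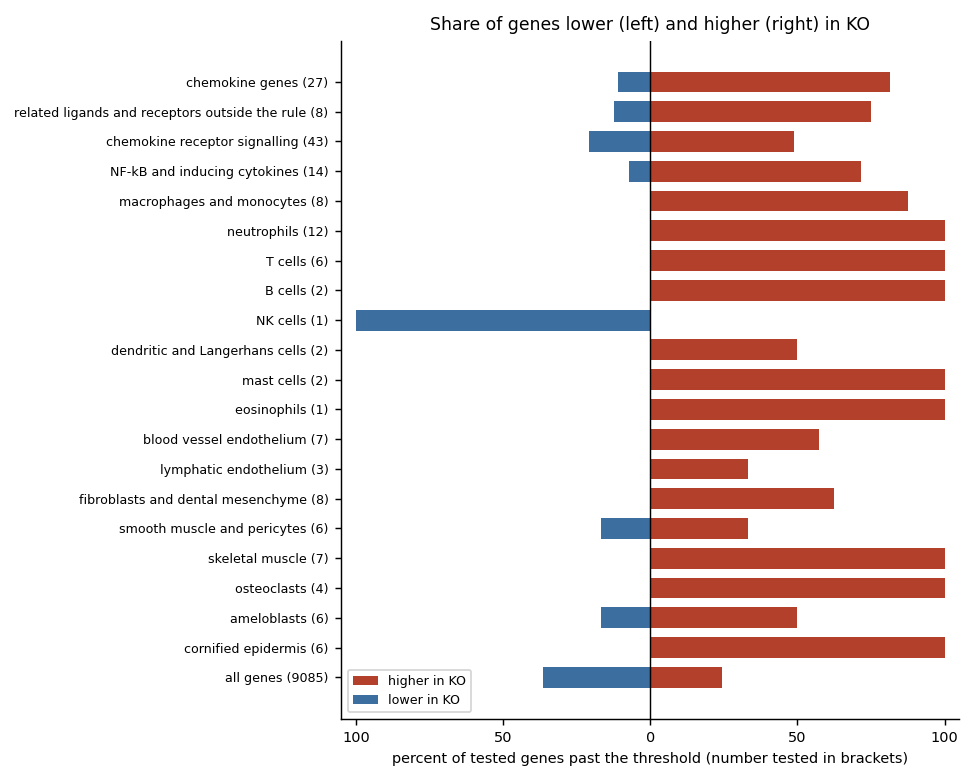
Percent of the tested genes of each list (y axis, with their number in brackets) that were higher in KO (red, right of 0) or lower in KO (blue, left of 0) at an adjusted p under 0.05 (x axis). Of the 27 chemokine genes 81.5% were higher and 11.1% lower, beside 24.4% and 36.5% of all 9085 genes.

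The size of the differences depended on the treatment of background signal, while their direction did not for the genes past the threshold. Without background correction Ccl3 differed by 2.70 in place of 4.91, Ccl4 by 3.89 in place of 5.02, Ccl7 by 0.83 in place of 2.29 and Ackr1 by 1.58 in place of 2.56. The median of the 27 genes was then 0.64. The 22 genes that were higher and the 3 that were lower kept their calls in each fit of the plot of processing methods.

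**Figure D5:**
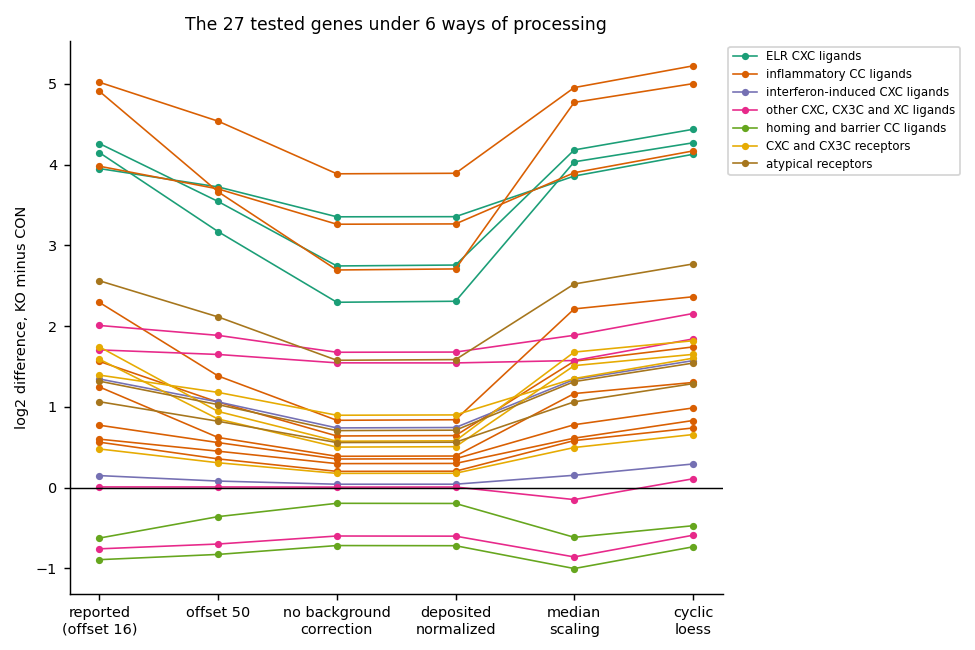
Difference of the log2 level, KO minus CON (y axis), of the 27 tested genes under 6 ways of processing (x axis), with 1 line per gene coloured by role. Ccl7 differed by 2.29 as reported and by 0.83 without background correction, Cxcl10 and Cxcl12 stayed within 0.3 of 0, and Ccl27a, Cx3cl1 and Ccl25 stayed below 0.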

How the data were processed

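Total RNA of Mat stage tissue was labelled and hybridised by the authors, and the beads were summarised with GenomeStudio (version not given in the sources used here). Mean bead intensity per probe, on a linear scale, and a detection p-value against negative control beads make up the deposited non-normalized table. The deposited normalized table holds the intensity values after the authors' normalization between arrays and was used as an alternative.

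Intensities were background corrected and quantile normalized with neqc of limma 3.58.1 (R 4.3.3, offset of 16, negative controls inferred from the detection p-values) and put on the log2 scale. Probes detected at p under 0.01 on at least 4 of 8 arrays were tested, which left 12838. The comparison of KO with CON used limma (lmFit and eBayes), two-sided and without covariates, with Benjamini-Hochberg adjustment over all tested probes at a threshold of 0.05. Each ± after a difference is an SE, and fold is the difference on the linear scale. Symbols came from the platform annotation (1719 probes are unnamed here), and the 3 Ccl21 probes were left out. The fit was tested on simulated data.

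Members, lists and tests were chosen with earlier results of these data known, and the motif letters after the values were seen. Array values are given for the 12 members past the threshold with the largest differences, for the brightest member of each role, for tested members that did not pass, and, outside this rule, for Cx3cl1, Ccl25, Ccl5, Ccl2 and Cxcl13. Genes of other lists are at most the 4 with the largest moderated statistic. Exceptions are genes at 0 or detected in KO alone, the ameloblast genes, S100a9, Rgs2, Prex1 and Mif. S100a9, Rgs2, Prex1 and Mif were named after their values were seen. Alternatives were an offset of 50, cyclic loess, median scaling, the deposited normalized values, uncorrected background, other filters, other variance models, array weights, the replicate block, leaving out each array, the mean of a gene's probes and the methods' t-test. Python 3.11, pandas 2.3.3, numpy 2.4.6 and matplotlib 3.10.9 were used.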

Additional observations from a re-analysis of the deposited data

Results flagged for a closer look

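Of the 56 groups of 4 arrays examined for the 27 tested genes and Med1, 4 held an array far from the others by Dixon's ratio, the gap to the nearest array over the whole range, and chance marks about 1 in 20 groups. Cxcl12 was high on KO array 1, at 11.27 against 11.05 on the nearest KO array (ratio 0.879), and Ackr3 was low on the same array, at 7.02 against 7.47 (ratio 0.850). Ccl6 was high on KO array 3, at 5.98 against 5.60 (ratio 0.952). Ccl5 was low on CON array 2, at 5.52 against 6.34 (ratio 0.872).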

How the results depend on the processing

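With each array left out in turn, 22 chemokine genes were higher in KO and 3 were lower in all 8 fits, their median difference was 1.33 to 1.46, Med1 differed by -0.83 to -0.66, and 2712 to 2796 probes were higher and 4345 to 4598 lower. The median of the chemokine genes, 1.39 as reported, was 1.60 with cyclic loess, 1.03 with an offset of 50, 0.645 with the deposited normalized values, 0.640 without background correction and 0.388 over all 56 genes without a filter. With detection on all 8 arrays 16 chemokine genes were tested and 13 were higher, and with detection in both groups, an alternative chosen after seeing the data, 22 were tested and 17 were higher. The methods' t-test at the unadjusted threshold of 0.005 with a fold over 1.5 gave 1733 probes higher and 1535 lower, beside 2878 and 4787 in the limma fit, and 18 chemokine genes higher and 2 lower, while after Benjamini-Hochberg adjustment it gave 22 and 3. Cyclic loess gave 2850 probes lower, and 58.4% of the genes it called were higher in KO, against 40.0% as reported, while 23 chemokine genes were higher, with Cxcl10 added at a difference of 0.29 (adjusted p = 0.034). The median of all genes was -0.12 as reported, 0.03 with cyclic loess and -0.21 with median scaling. Replicate numbers did not pair the samples, since same-numbered deviations correlated at -0.011 to 0.019 and 0 samples correlated best with their own number, and with the replicate block 22 chemokine genes were higher and 3 lower, with a median of 1.39. Besides Cxcl10 and the calls lost under the unadjusted methods' t-test, no call of a tested chemokine gene changed under an alternative in which it was tested. The causes of these shifts were not tested. Signal over background limits the dim genes, for which array intensities give no depth.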
